A study of Mus musculus with 6 samples.

Results

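The S-phase and mitosis genes described here are 41 genes whose transcripts mark cells that copy their DNA or divide: 19 genes of DNA replication and of the step into S phase, and 22 genes of the G2 phase and of mitosis. They were chosen by name for their known roles, with earlier results of these data known, and all 41 symbols were found among the 23955 genes of the files. They were measured in RNA bound to astrocyte ribosomes from adult mice, as 3 diencephalon libraries and 3 libraries of cortical grey matter. The area next to the third ventricle had been cut away from the first, and the meninges and white matter from the second. Mice of both regions shared 1 genotype, labelled Slc1a3 +/- GFP+ Rpl22HA fl/fl, on strain C57BL/6. They carried an inducible Cre recombinase, CreERT2, in the Slc1a3 locus, a floxed Rpl22 allele that gains a haemagglutinin tag after recombination, and a CAG-cat,-EGFP transgene. Tamoxifen in corn oil was given by gavage at 9 weeks, tissue came from mice of 3 months and both sexes, and each library was made from a pool of 3 mice. The Slc1a3 promoter limits the model: Slc1a3 encodes the astrocyte glutamate transporter GLAST and is also active in radial glia and adult neural stem cells, so the tag is not restricted to mature astrocytes. The series compares the 2 regions, and its title names proliferation and stem cell potential.

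A cell that leaves quiescence makes E-type cyclins, which with Cdk2 release E2F factors that switch on the replication genes. The MCM helicase is loaded at origins by Cdc6 and Cdt1, opens the DNA, and is followed by polymerases held by the PCNA clamp, while ribonucleotide reductase and thymidylate synthase supply nucleotides. Cyclin A and B with Cdk1, the Aurora and Polo kinases, the spindle checkpoint and the APC/C ubiquitin ligase then drive mitosis. Most astrocytes of the adult brain are quiescent, and dividing cells there are known mainly as neural stem cells, neuroblast precursors and oligodendrocyte progenitors.

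Promoters of such genes are known for E2F sites, CCAAT boxes and the cell cycle genes homology region (CHR). A promoter was matched by symbol for 35 of the 41 genes in the RefSeq table (build GRCm38.p6; not Mcm4, Ccne2, Gmnn, Ccna2, Aurkb or Tpx2), and the 250 bases before the annotated start were searched on both strands. The files themselves use mm9, so these coordinates apply to the RefSeq build only. A CHR match, TTTGAA or TTCGAA, was found in 8 of 19 G2/M promoters (42.1%) and in 4 of 16 S-phase promoters (25.0%), beside 19.6% of 27025 genes. CCAAT was found in 15 of 19 G2/M promoters (78.9%) and 11 of 16 S-phase promoters (68.8%), beside 37.5% of all genes. An E2F match, TTTCGCGC or TTTGGCGC, was found in Mcm5 and Mcm6 among the S-phase genes and in Cdk1 among the G2/M genes, beside 0.759% of all genes. The shorter GGCGGGA was found in 4 of 16 and 5 of 19 promoters, beside 11.0% of all genes. The promoters shown are those of Mki67 and Top2a because, among the diencephalon libraries, both were highest in the same 1, that of Cdk1 because it had no count in any library, and that of Mcm6 as an S-phase gene with E2F matches. Capitals mark every match to the motifs above, and in Mcm6 a pair of matches overlaps. They lie at chr7:135716380-135716629, chr11:99024190-99024439, chr10:69352913-69353162 and chr1:128359706-128359955, in the order of the lines, all on the minus strand.
Mki67: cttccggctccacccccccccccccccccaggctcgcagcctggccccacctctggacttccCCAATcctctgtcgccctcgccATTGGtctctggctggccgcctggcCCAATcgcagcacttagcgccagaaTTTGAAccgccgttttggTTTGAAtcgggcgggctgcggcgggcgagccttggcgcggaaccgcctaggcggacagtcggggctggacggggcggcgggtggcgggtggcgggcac
Top2a: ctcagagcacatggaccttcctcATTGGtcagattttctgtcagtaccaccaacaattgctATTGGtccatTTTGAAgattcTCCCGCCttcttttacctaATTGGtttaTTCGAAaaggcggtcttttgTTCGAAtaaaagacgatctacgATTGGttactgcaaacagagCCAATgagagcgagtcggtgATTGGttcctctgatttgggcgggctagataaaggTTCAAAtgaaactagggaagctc
Cdk1: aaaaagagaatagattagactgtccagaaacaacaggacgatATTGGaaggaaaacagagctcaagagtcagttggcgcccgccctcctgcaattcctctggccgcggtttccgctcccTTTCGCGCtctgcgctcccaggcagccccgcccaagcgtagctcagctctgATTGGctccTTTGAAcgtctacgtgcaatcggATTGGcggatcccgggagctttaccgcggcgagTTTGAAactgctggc
Mcm6: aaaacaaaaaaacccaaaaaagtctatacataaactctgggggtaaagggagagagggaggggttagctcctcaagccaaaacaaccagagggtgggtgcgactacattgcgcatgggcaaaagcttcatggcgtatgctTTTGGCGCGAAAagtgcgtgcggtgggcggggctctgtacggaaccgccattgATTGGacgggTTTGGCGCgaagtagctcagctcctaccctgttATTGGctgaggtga
A match is a description of letters, and no measurement here bears on binding.

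Library totals ran from 1733140 to 2334234 rounded counts, so 3 counts stood for 1.31 to 1.86 CPM (counts scaled to a common library size, with TMM factors that make libraries comparable). About 3 counts is the upper 95% limit that a count of 0 allows. It has no lower end, unlike the exact 95% intervals given further on, which are wider. Between 58.9% and 61.4% of all genes had a count in a library. By a chi-square per degree of freedom over genes, cortical replicate 3 stood farther from cortical replicates 1 and 2 (6.81 and 5.91) than any other pair of 1 region (2.59 to 3.41). Y-linked transcripts were at 8.44 CPM in diencephalon replicate 2 and at 0 in cortical replicate 3, against 145 to 166 CPM elsewhere. All 15 astrocyte markers had counts in all 6 libraries. They summed to 19625 to 22976 CPM in the diencephalon and 28694 to 35938 CPM in the cortex, though 4 of the 15 had a higher mean in the diencephalon. The cell type of the labels was thus present, and markers of other types are given beside the pooled sums. Replicates are pools, and fewer dividing cells cannot be told apart from less RNA per cell.

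All 41 genes together had 1826 counts in the 6 libraries, 0.0155% of all counts, and Pcna alone made up 24.1% of them. Detection was broad but shallow. A count was found for 20 of the 41 genes in all 6 libraries, for 22 in all 3 diencephalon libraries and for 25 in all 3 cortical libraries. In at least 1 library of a region, 40 genes were seen in the diencephalon and 39 in the cortex: Cdk1, the mitotic kinase itself, had no count anywhere, and Plk1 had none in the cortex. Taken alone, and by the limit of 3 counts, the zero of Cdk1 in the shallowest library allows a level of up to 1.86 CPM there. The 6 zeros together allow less for a level shared by all libraries, which was not computed.

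The number of genes with at least 1 count was 38, 28 and 26 in diencephalon replicates 1 to 3 and 32, 35 and 33 in cortical replicates 1 to 3. The regions overlapped, and diencephalon replicate 1 held the highest number of the 6. At the smallest library total the expected numbers would be 36.7, 27.8 and 25.4 against 30.3, 34.0 and 33.0, so depth moved them by under 2 genes. The spread lay mostly in the G2/M genes, with 20, 13 and 12 of 22 detected in the diencephalon and 15, 18 and 16 in the cortex, while 18, 15 and 14 of 19 S-phase genes were detected in the diencephalon and 17 in each cortical library. With at least 3 counts required, 28, 19 and 16 genes remained in the diencephalon and 21, 22 and 20 in the cortex, a mean of 21.0 in each region.

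**Figure D1:**
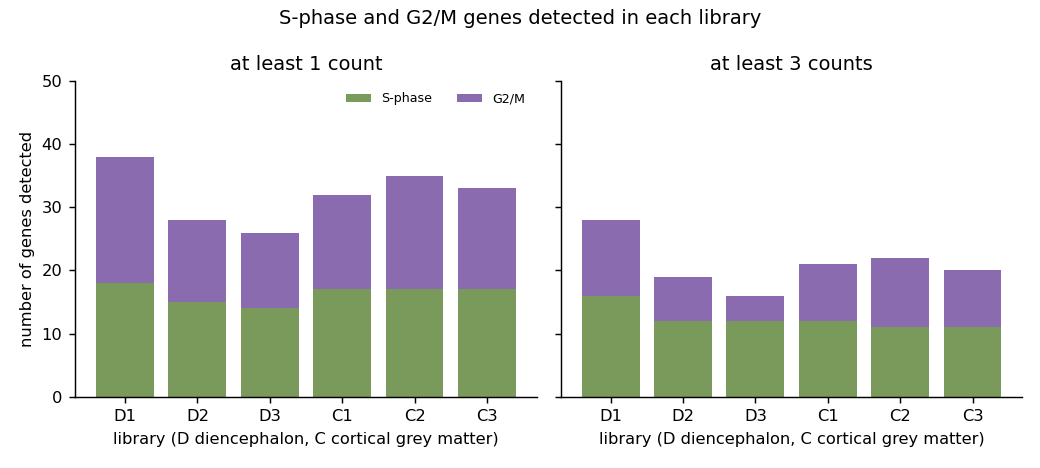
Number of S-phase genes (of 19) and G2/M genes (of 22) detected in each library, as stacked bars, at 1 or more counts (left) and 3 or more counts (right); D marks diencephalon and C cortical grey matter libraries. Diencephalon replicate 1 has the tallest bar in both panels (38 and 28 genes), and diencephalon replicate 3 the shortest (26 and 16).

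Compared per transcript length, as TPM values, which correct for both transcript length and library size, Pcna stood alone at a mean of 116 TPM over the 6 libraries, a level above that of 92.3% of all genes. Ccne2 followed at 19.0 TPM, Mcm4 at 12.6, Rrm1 at 11.0 and Mad2l1 at 10.9 TPM. Mki67, a long transcript, was at 4.25 TPM and Top2a at 3.06 TPM. In all, 8 genes had a mean of at least 5 TPM, 22 lay between 1 and 5 TPM, and 11 lay below 1 TPM. The upper ranks were thus held by S-phase genes and the spindle checkpoint gene Mad2l1.

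**Figure D2:**
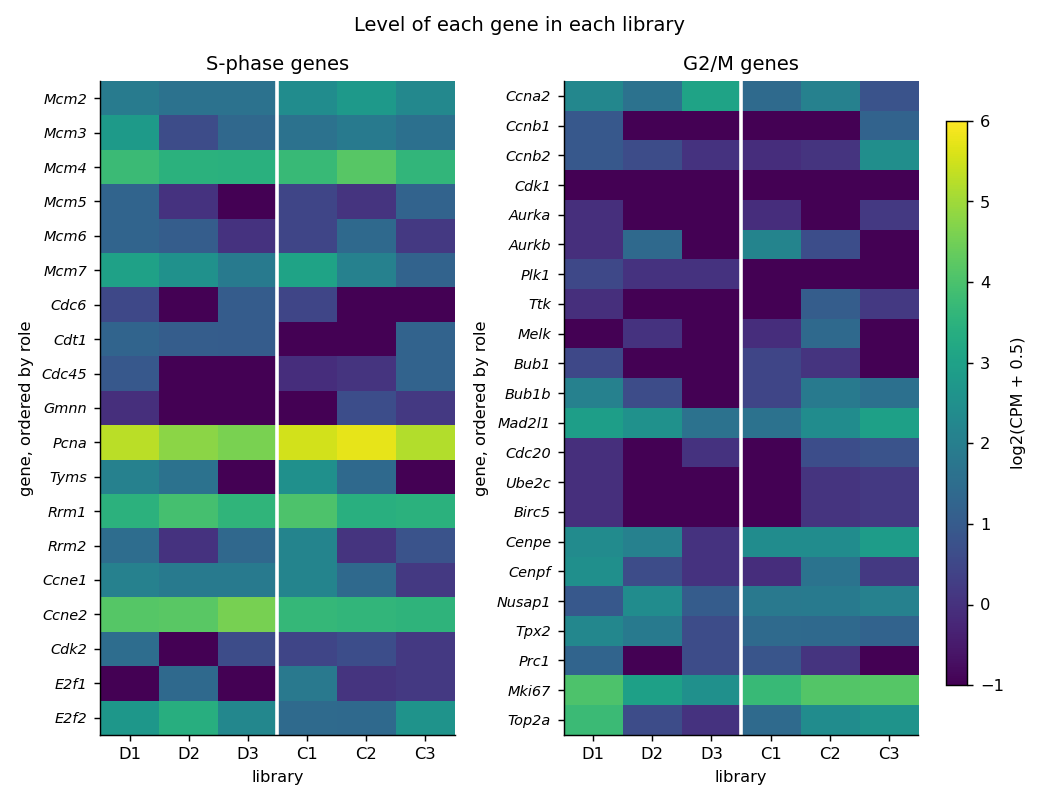
Level of each of the 41 genes (rows, grouped by phase) in the 6 libraries (columns) on a log2(CPM + 0.5) colour scale. Pcna is the brightest row, Cdk1 is at the dark end of the scale (no count) in all 6 libraries, and Mki67 and Top2a are brighter in diencephalon replicate 1 than in replicates 2 and 3.

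Summed over the 19 S-phase genes, counts were 263, 192 and 173 in diencephalon replicates 1 to 3 and 285, 223 and 151 in cortical replicates 1 to 3. As levels these were 123, 101 and 90.4 CPM against 124, 119 and 93.8 CPM, with a mean of 105 ± 16.6 against 112 ± 16.3 CPM (SD, n = 3 libraries each). The libraries of both regions covered the same range. The ratio of diencephalon to cortical means was 0.934, and that of the summed counts was 0.926 with an exact 95% interval of 0.829 to 1.035, which covers counting error only and not the spread between pools. The sum leaned on 1 gene: without Pcna the ratio of means was 1.12, and without Pcna and Ccne2 it was 1.009. Without cortical replicate 3 the ratio of all 19 genes was 0.863.

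Summed over the 22 G2/M genes, counts were 147, 65 and 43 in the diencephalon and 88, 103 and 93 in the cortex. The levels were 68.8 CPM (exact Poisson 95% interval 58.1 to 80.8), 34.3 CPM (26.5 to 43.7) and 22.5 CPM (16.3 to 30.3) in the diencephalon, and 38.4, 54.8 and 57.8 CPM in the cortex. Diencephalon replicate 1 was the highest of the 6 libraries and replicates 2 and 3 were the lowest, so that the spread within the diencephalon exceeded the distance between regions. Means were 41.8 ± 24.1 and 50.3 ± 10.4 CPM (SD, n = 3 each), a ratio of 0.831, and the ratio of summed counts was 0.873 (0.734 to 1.037). Without diencephalon replicate 1 the ratio of means was 0.564, and without diencephalon replicate 3 it was 1.02. Without cortical replicate 3 it was 0.898.

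**Figure D3:**
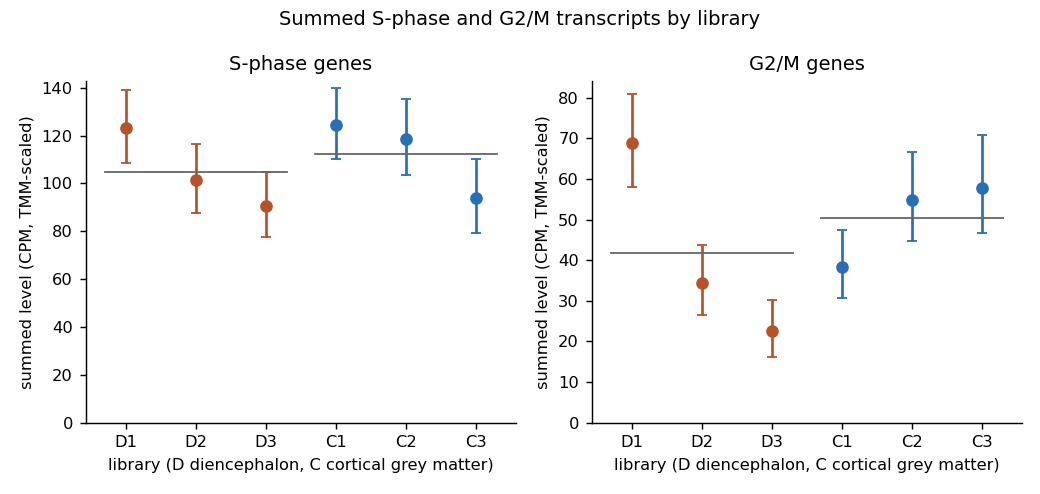
Summed level of the 19 S-phase genes (left) and the 22 G2/M genes (right) in each library, in TMM-scaled CPM; bars are exact Poisson 95% intervals of the summed counts and lines are regional means. The S-phase sums overlap between regions, while the G2/M sum of diencephalon replicate 1 (68.8 CPM) lies above those of replicates 2 and 3 (34.3 and 22.5 CPM).

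Diencephalon replicate 1 was singled out for its high sums, so the values that follow describe it and test nothing. Its excess was seen in many genes but was uneven in size. Mki67 and Top2a together were at 29.0 CPM there, against 8.44 and 5.75 CPM in replicates 2 and 3. Among its region's libraries replicate 1 held the highest level for 14 of 19 S-phase genes and 16 of 22 G2/M genes, beside 34.3% of the 10568 genes that passed the count filter. That share is not of like genes, since 34 of the 41 genes had too few counts to pass the filter. Replicate 1 also had the largest total of the diencephalon libraries (2078791 counts, against 1840341 and 1882254). For 6 G2/M genes and 2 S-phase genes it was the only diencephalon library with a count, but none of these genes had more than 3 counts there. Leaving out Mki67 and Top2a kept its place, with G2/M sums of 39.8, 25.8 and 16.7 CPM in the diencephalon against 23.6, 33.0 and 34.8 CPM in the cortex. In the cortex, replicate 3 was highest for 11 of 22 G2/M genes, beside 38.4% of all tested genes. Within each library, the G2/M genes' share of the counts of the 41 genes was 35.9%, 25.3% and 19.9% in the diencephalon and 23.6%, 31.6% and 38.1% in the cortex. These shares covered the same range in both regions.

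Markers of other cells that can divide were set beside these sums. The 12 oligodendrocyte progenitor markers summed to 354, 385 and 373 CPM in the diencephalon and 404, 430 and 449 CPM in the cortex, though 4 of the 12 had a higher mean in the diencephalon. The sum was lowest in diencephalon replicate 1, although 6 of the 12 markers were highest there among the diencephalon libraries. The 10 neuroblast and progenitor markers summed to 310, 336 and 367 CPM against 313, 285 and 347 CPM, and of these Igfbpl1 was at 0 in the cortex. These sums overlapped, but 9 of the 10 markers had a higher mean in the diencephalon. The 11 oligodendrocyte markers, all higher on average in the diencephalon, summed to 2477, 1958 and 1850 CPM against 867, 1098 and 851 CPM, and the 12 microglial markers to 451, 690 and 378 CPM against 548, 824 and 1294 CPM. The 14 endothelial and mural markers summed to 135, 102 and 108 CPM against 266, 309 and 188 CPM, and the 12 meningeal and fibroblast markers to 1248, 832 and 1102 CPM against 6014, 8184 and 4509 CPM, although the meninges had been removed, with Slc47a1 at 0 in the diencephalon. Both sums were higher in the cortex without overlap, but 5 of the 14 endothelial and mural markers had a higher mean in the diencephalon. Within the diencephalon both sums were highest in replicate 1, as were the astrocyte and oligodendrocyte sums. Of the single markers, 7 of the 14 and 8 of the 12 were highest in that library. The 12 cortical excitatory neuron markers were at 984 to 1397 against 5446 to 6430 CPM, with Emx1 at 0 in all libraries, and the 12 subcortical neuron markers at 547 to 689 against 130 to 158 CPM, with Pmch, Hcrt, Th and Avp at 0 in the cortex. The 12 ependymal and choroid plexus markers were at 144 to 169 against 31.7 to 73.5 CPM, with Tmem212 and Dynlrb2 at 0 in the cortex. The part of these cells in the sums, and in the single genes that follow, was not tested.

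Region was tested gene by gene with edgeR's quasi-likelihood test over all 10568 genes past its count filter. Only 7 of the 41 genes passed that filter: Pcna, Ccne2, Rrm1, Mcm4 and Mcm7 of the S-phase genes, and Mki67 and Mad2l1 of the G2/M genes. None of the 7 passed the threshold (Benjamini-Hochberg adjusted p under 0.05) as higher in the diencephalon, beside 14.9% of all tested genes, and 1 of 7 (14.3%), Pcna, passed as lower, beside 14.8%. The member count was close to that background. An unadjusted p under 0.05 was seen for 2 of the 7. Their median log2 difference was -0.02, and that of all tested genes was 0.01.

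Among the replication genes, Pcna encodes the sliding clamp of the DNA polymerases and also serves DNA repair. Its counts were 81, 51 and 45 in the diencephalon and 105, 100 and 58 in the cortex, or 37.9, 26.9 and 23.5 CPM against 45.8, 53.2 and 36.0 CPM. Diencephalon replicate 1 lay above cortical replicate 3, so the regions overlapped. Pcna fell in the diencephalon, at 29.4 ± 7.52 against 45.0 ± 8.63 CPM (SD, n = 3 each), by 0.61 ± 0.22 on the log2 scale (SE; 1.53-fold lower; edgeR adjusted p = 0.0386). The call was lost in 8 of 16 alternative fits, whose adjusted p ran from 0.0088 to 0.225. Among the left-out libraries it was lost without diencephalon replicate 2 (edgeR adjusted p = 0.121) or 3 (0.182) and without cortical replicate 1 (0.0867) or 2 (0.169), and it held without the outlying cortical replicate 3 (0.0088) or diencephalon replicate 1 (0.0139).

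Rrm1, the large subunit of ribonucleotide reductase, was at 10.8, 14.8 and 11.5 CPM in the diencephalon and 16.1, 10.1 and 10.6 CPM in the cortex, with a log2 difference of -0.02 ± 0.31 (edgeR adjusted p = 0.978) that ran from -0.17 to 0.24 when 1 library was left out. Rrm2, the small subunit, had 5, 1 and 4 counts against 9, 1 and 2. Tyms, which encodes thymidylate synthase, had 8, 5 and 0 counts against 12, 4 and 0, and was thus unseen in replicate 3 of both regions. With Pcna these genes summed to 45.6 ± 8.84 against 61.7 ± 12.2 CPM (SD, n = 3 each), a ratio of 0.739, and the libraries overlapped.

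Of the MCM helicase subunits, Mcm4 was at 13.1, 10.5 and 10.5 CPM in the diencephalon and 12.7, 17.6 and 11.8 CPM in the cortex (log2 difference -0.30 ± 0.30, edgeR adjusted p = 0.498). Mcm7 was at 7.49, 5.27 and 3.14 CPM against 7.85, 3.73 and 1.86 CPM (log2 difference 0.18 ± 0.50, edgeR adjusted p = 0.824). The Mcm7 value had no stable direction: it was -0.16 without diencephalon replicate 1, -0.15 without cortical replicate 3 and 0.88 without cortical replicate 1. Neither passed the test, and in both genes the libraries overlapped. Mcm2 had 7, 5 and 5 counts in the diencephalon and 11, 12 and 7 in the cortex, and on the CPM scale every cortical library lay above every diencephalon library (4.35 to 6.39 against 2.61 to 3.27 CPM). Mcm3 had 14, 2 and 4 counts against 6, 6 and 4, with most of its diencephalon reads in replicate 1. Mcm6 had 4, 3 and 1 against 2, 4 and 1, and Mcm5 had 4, 1 and 0 against 2, 1 and 3. Taken as a complex, the 6 subunits summed to 34.2, 21.6 and 18.8 CPM against 29.7, 33.5 and 23.0 CPM, a ratio of means of 0.865.

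The licensing genes were near the floor. Cdt1, which brings the helicase to origins, had 4, 3 and 3 counts in the diencephalon and 0, 0 and 3 in the cortex. Cdc6, Cdc45 and Gmnn, which encode the loading ATPase, a helicase activator and the inhibitor geminin, had 7, 8 and 4 counts over the 6 libraries. None of these genes passed the count filter.

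Among the genes of the step into S phase, Ccne2, which encodes cyclin E2, was at 17.3, 17.9 and 23.0 CPM in the diencephalon and 12.2, 11.7 and 11.2 CPM in the cortex. It was the only 1 of the 7 tested genes whose libraries did not overlap, with higher levels in the diencephalon, beside 21.8% of all tested genes without overlap in that direction. None lay without overlap in the lower direction, beside 20.8%. Its log2 difference was 0.72 ± 0.27 and it missed the threshold (edgeR adjusted p = 0.0514, range over alternatives 0.0292 to 0.201; 0.0818 without cortical replicate 3). In 5 of the 6 libraries its expected count was not whole, as RSEM gives where it divides reads between candidate sources, and the other source was not examined.

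E2f2, an activating E2F factor, had 13, 19 and 8 counts in the diencephalon and 5, 4 and 9 in the cortex. It did not pass the count filter with all libraries. Without a count filter its log2 difference was 1.07 ± 0.52 (edgeR adjusted p = 0.141). With all libraries it did not pass with DESeq2 (adjusted p = 0.338) or on the TPM scales (limma adjusted p = 0.200 and 0.220). It passed without cortical replicate 3, its highest cortical library, at 1.61 ± 0.60 (edgeR adjusted p = 0.0371). In that fit it met the count filter only through the diencephalon, where it was high, so the call adds no support. Without diencephalon replicate 2 the log2 difference was 0.69 (edgeR adjusted p = 0.460), and without cortical replicate 1 or 2 it was 0.82 (0.337) or 0.85 (0.321). Ccne1, which encodes cyclin E1, had 8, 6 and 6 counts against 9, 4 and 1, and its kinase partner Cdk2 had 5, 0 and 2 against 2, 2 and 1. E2f1 had 0, 4 and 0 counts against 7, 1 and 1. Together the 5 genes of cyclin E, Cdk2 and E2F summed to 29.5, 33.2 and 31.4 CPM in the diencephalon and 22.3, 17.6 and 18.6 CPM in the cortex. This was the only role group of the 9 whose regional sums did not overlap. The ratio of means was 1.61, and that of summed counts 1.59 with an exact counting interval of 1.25 to 2.02. Ccne2 and E2f2 held most of the group's counts, and the lack of overlap rested on Ccne2. Of the 5 genes only Ccne2 was itself without overlap, and E2f1 had a lower mean in the diencephalon (0.703 against 1.40 CPM). A sum over chosen genes has no test.

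Among the mitotic genes, Mki67 encodes the Ki-67 protein that coats mitotic chromosomes and is absent from resting cells. It was at 15.9, 7.38 and 5.23 CPM in the diencephalon and 12.7, 17.0 and 17.4 CPM in the cortex. Diencephalon replicate 1 lay among the cortical libraries, and replicates 2 and 3 lay below all of them. The log2 difference was -0.69 ± 0.36 and did not pass (edgeR adjusted p = 0.159, range over alternatives 0.0167 to 0.490). Without diencephalon replicate 1 it was -1.30 ± 0.38 and passed (edgeR adjusted p = 0.0167), and without diencephalon replicate 3 it was -0.40 ± 0.36 (edgeR adjusted p = 0.490).

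Top2a, the topoisomerase that untangles sister chromatids, had 28, 2 and 1 counts in the diencephalon and 5, 9 and 9 in the cortex. Diencephalon replicate 1 thus held 13.1 CPM of Top2a, beside 1.05 and 0.523 CPM in replicates 2 and 3 and 2.18 to 5.59 CPM in the cortex. Top2a did not pass the count filter, and without the filter its log2 difference was 0.31 ± 0.53 (edgeR adjusted p = 0.730). Both chromosome proteins thus had the same order within the diencephalon.

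**Figure D4:**
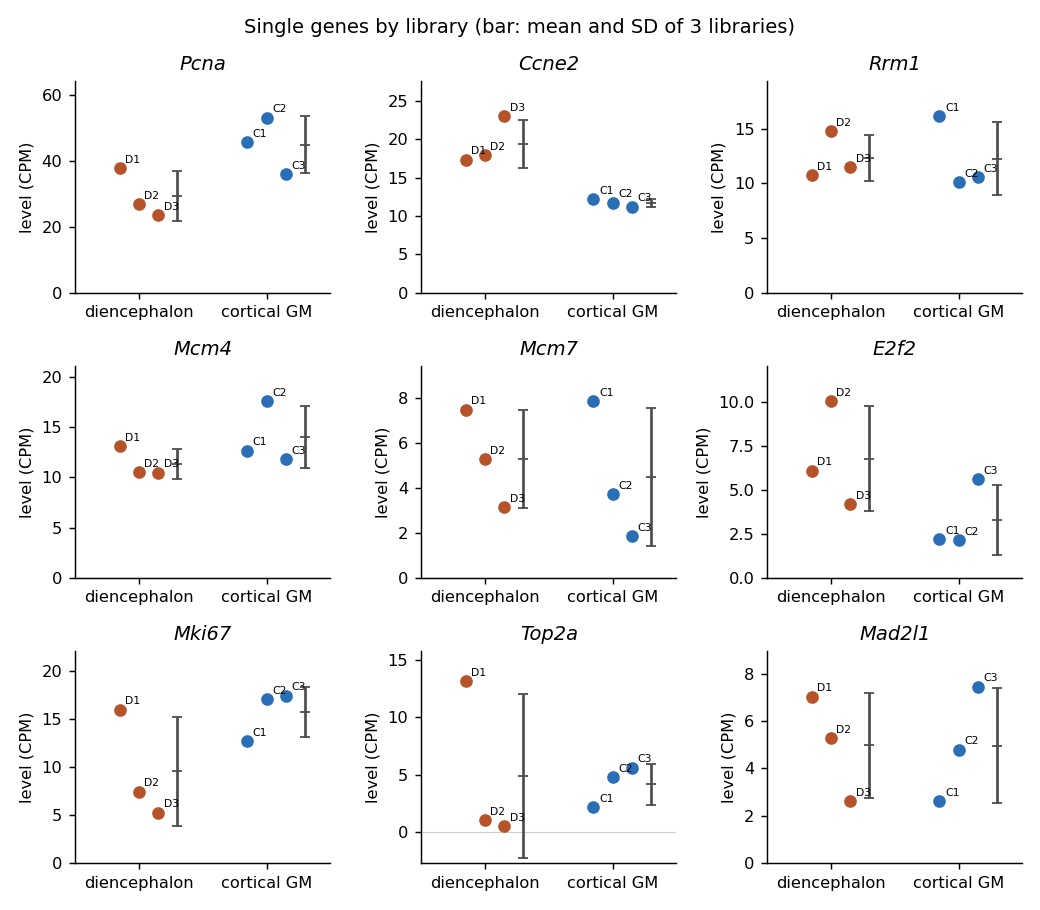
Level by library, in TMM-scaled CPM, of single S-phase and G2/M genes in the diencephalon and cortical grey matter; points are libraries and bars are mean ± SD (n = 3). Ccne2 is without overlap between regions, Pcna overlaps, and for Mki67 and Top2a diencephalon replicate 1 (15.9 and 13.1 CPM) lies above replicates 2 and 3.

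The mitotic cyclins were low in both regions. Ccna2, which encodes cyclin A2, had 9, 5 and 15 counts in the diencephalon and 5, 7 and 2 in the cortex. Its expected counts, too, were not whole, in all 6 libraries. Without a count filter its log2 difference was 0.99 ± 0.60 (edgeR adjusted p = 0.268). Ccnb2, which encodes cyclin B2, had 3, 2 and 1 counts against 1, 1 and 8, with most of its cortical reads in replicate 3. Ccnb1 had 6 counts in all, 3 in diencephalon replicate 1 and 3 in cortical replicate 3.

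The mitotic kinases had few counts. Aurkb, the kinase of the chromosomal passenger complex, had 1, 4 and 0 counts in the diencephalon and 9, 2 and 0 in the cortex. Plk1, the Polo kinase, had 2, 1 and 1 counts in the diencephalon and none in the cortex, which stays under the floor of 3 counts per library. Melk, the checkpoint kinase Ttk and Aurka had 6, 5 and 3 counts over all libraries.

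Of the spindle checkpoint and APC/C genes, Mad2l1, which encodes the checkpoint protein MAD2, passed the filter. It was at 7.02, 5.27 and 2.61 CPM in the diencephalon and 2.62, 4.79 and 7.45 CPM in the cortex, the same range in both (log2 difference 0.07 ± 0.49, edgeR adjusted p = 0.930, and -0.28 to 0.45 when 1 library was left out). Bub1b, which encodes BUBR1, had 8, 2 and 0 counts against 2, 6 and 4. Cdc20 and Ube2c, activator and E2 enzyme of the APC/C, had 6 and 3 counts over all libraries, and Bub1 had 5.

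Of the kinetochore and spindle genes, Cenpe, a kinesin of the kinetochore, had 10, 7 and 1 counts in the diencephalon and 11, 9 and 11 in the cortex. On the CPM scale its cortical libraries (4.79 to 6.83) lay above its diencephalon libraries (0.523 to 4.68), by a small margin for diencephalon replicate 1. Without a count filter its log2 difference was -0.84 ± 0.56 (edgeR adjusted p = 0.321). Cenpf, a kinetochore protein of G2 and mitosis, had 11, 2 and 1 counts against 1, 5 and 1, again with most of its diencephalon reads in replicate 1. Nusap1, a microtubule bundling protein, had 3, 9 and 3 against 7, 6 and 6, and Tpx2, which activates Aurora A on the spindle, had 9, 6 and 2 against 5, 4 and 3. Prc1, which bundles midzone microtubules, had 4, 0 and 2 against 3, 1 and 0, and Birc5, which encodes survivin, had 3 counts in all.

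The 34 genes under the filter had at most 58 counts over the 6 libraries, and 13 genes had fewer than 10. When the filter was left out, 40 of the 41 genes could be fitted among 16615 genes, of which 21.2% passed in either direction. Pcna was again the only member to pass (edgeR adjusted p = 0.0226). The other 39 genes fitted, Mcm2, Cenpe, Cdt1 and Ccna2 among them, did not pass.

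Genes of the same pathways outside the 41 were read from 2 further lists. Of 61 other S-phase genes 25 were tested: 2 rose, 1 fell and 22 did not pass, with a median log2 difference of 0.03. Over all tested genes, 14.9% were higher and 14.8% lower. E2f7, an atypical E2F that represses E2F targets, was at 12.2, 8.96 and 23.0 CPM in the diencephalon and 1.31, 1.60 and 2.48 CPM in the cortex. It rose 8.17-fold (log2 difference 3.03 ± 0.49, edgeR adjusted p = 6.12e-05). Atad2, a chromatin ATPase induced by E2F, was at 1.87, 2.64 and 3.14 CPM against 10.5, 20.8 and 24.8 CPM and fell 7.11-fold in the diencephalon (log2 difference -2.83 ± 0.43, edgeR adjusted p = 2.62e-05). Both were without overlap and passed in each of 15 alternative fits. The lower levels of both genes were near the floor of 3 counts (1.31 to 1.86 CPM), so the sizes of the folds are uncertain. Orc3, an origin recognition subunit, rose by a log2 difference of 0.39 ± 0.13 (edgeR adjusted p = 0.0273). Its call was lost in 6 of 16 alternatives, among them without diencephalon replicate 2 (edgeR adjusted p = 0.118) or 3 (0.133) and without cortical replicate 1 (0.107) or 2 (0.0820).

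Of 62 other G2/M genes 19 were tested: 1 rose, 3 fell and 15 did not pass, with a median log2 difference of 0.10, beside the same 14.9% and 14.8% of all tested genes. Anln, which encodes anillin, a cytokinesis scaffold that is also found in myelin, was at 35.6, 40.1 and 24.6 CPM in the diencephalon and 5.67, 12.2 and 11.2 CPM in the cortex. It rose 3.51-fold (edgeR adjusted p = 5.89e-05) and passed in all 16 alternative fits. The 11 oligodendrocyte markers were 2.23-fold higher in the diencephalon, and their part in the Anln difference was not tested. The 3 that fell encode a beta-tubulin, a histone chaperone and a microtubule polymerase. They were Tubb4b (log2 difference -0.74 ± 0.19, edgeR adjusted p = 0.00436, and 0.0529 without cortical replicate 1), Anp32e (-0.56 ± 0.15, edgeR adjusted p = 0.00594, and 0.0571 without diencephalon replicate 3) and Ckap5 (-0.37 ± 0.13, edgeR adjusted p = 0.0334). On the TPM scales Tubb4b and Anp32e did not pass either, with limma adjusted p up to 0.113 and 0.156. The Ckap5 call was lost on the TPM scales (limma adjusted p up to 0.378), without diencephalon replicate 2 (edgeR adjusted p = 0.144) or 3 (0.164) and without cortical replicate 1 (0.0916) or 2 (0.0832). All 3 serve functions outside mitosis and were at 46.4 to 304 CPM, far above the 41 genes other than Pcna.

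All 61 other S-phase genes summed to 681, 699 and 750 CPM in the diencephalon and 639, 661 and 636 CPM in the cortex, without overlap, a ratio of means of 1.10 (ratio of summed counts 1.099, exact counting interval 1.051 to 1.148). That difference leaned on Orc3, which alone had means of 234 and 179 CPM, beside 710 and 645 CPM for the sum. The 41 genes' own S-phase sum had a ratio below 1, as given above. All 62 other G2/M genes summed to 1709, 1464 and 1494 CPM against 1699, 1615 and 1570 CPM, with overlap and a ratio of 0.956. The genes of both lists that did not pass the count filter were low in both regions. The 36 other S-phase genes under it summed to 54.3 ± 11.5 against 54.8 ± 4.55 CPM, a ratio of 0.992, and the 43 other G2/M genes to 36.8 ± 8.07 against 41.8 ± 5.25 CPM, a ratio of 0.880 (SD, n = 3 each).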

How the data were processed

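Ribosome-bound RNA from 3 diencephalon and 3 cortical grey matter pools was amplified with the Ovation system and sequenced on an Ion Proton, per the labels' protocols. The authors quantified genes with RSEM on build mm9, per the submitters' processing notes; the RSEM version, the aligner and strandedness were not given in the sources used here. The deposited expected counts were rounded (totals 1733140 to 2334234), scaled by TMM and fitted with edgeR 4.0.16 (filterByExpr, minimum count 10, quasi-likelihood test, region only, Benjamini-Hochberg over 10568 genes). The common biological coefficient of variation was 13.6%. The deposited TPM values, scaled by effective length by the authors, served for comparing genes and, with limma 3.58.1, as an alternative; the deposited FPKM values, per the file headers a further length-scaled measure, were not used. DESeq2 1.42.0, R 4.3.3 and the other alternatives are in the closing section.

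Rounded counts of the S-phase and G2/M genes were summed per library, with exact Poisson intervals, and a ratio of sums has an exact binomial-based interval; sums have no test. Amplified reads carry no molecular identifiers per the labels, so intervals and floors cover counting error only. Per-library values are given for each of the 41 genes past the filter or with at least 10 counts, and the others by their sums; of the further lists, up to 6 genes past the threshold are named. Members and lists were chosen with earlier results of these data known. Mlf1ip, listed among the other S-phase genes, was not matched by symbol. Replicate numbers are not stated to mark shared mice, and same-numbered libraries did not deviate together (r = 0.06, -0.10 and 0.00 across genes).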

Additional observations from a re-analysis of the deposited data

How the results depend on the processing

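Of the 41 genes, 1 passed as higher with a minimum count of 30, on log2(TPM + 1), on log2(TPM + 0.1) and with a term for libraries low in Y-linked transcripts (Ccne2 each time), and 0 to 1 when 1 library was left out (E2f2 without cortical replicate 3). As lower, 0 passed with DESeq2 (1 of the 26 members it gave an adjusted p had an unadjusted p under 0.05), on both TPM scales and with the length trend removed, and 0 to 2 with 1 library left out. The Ccne2 call at a minimum count of 30 and the E2f2 call add no support for a regional difference. Each gene met the filter of that fit only through the diencephalon, where it was high. At a minimum count of 30 only 3 of the 41 genes were tested. TPM moved the median log2 difference of all genes by 0.21 or 0.22 toward the diencephalon. The log2 difference of Rrm1 changed sign on log2(TPM + 1) (0.21), on log2(TPM + 0.1) (0.23) and with the replicate block (0.0017), and with 1 library left out it ran from -0.17 to 0.24 (0.07, 0.03 and 0.24 without diencephalon replicate 1 or 3 or cortical replicate 1); that of Mcm7 ran from -0.16 to 0.88 and that of Mad2l1 from -0.28 to 0.45. Of the other S-phase genes, 1 was higher with a minimum count of 30, DESeq2 or the length trend removed (1 to 3 with 1 library left out) and 0 were lower with a minimum count of 30 (1 with any library left out). Of the other G2/M genes, 2 were higher without a count filter and on both TPM scales (1 to 2 with 1 library left out), and 5 were lower without a count filter, 1 on log2(TPM + 0.1) and 1 to 3 with 1 library left out. The pooled S-phase ratio was 1.12 without Pcna, 1.09 over genes under the count filter only, and 0.853 to 0.999 with 1 library left out; that of G2/M was 0.564 to 1.02. At 3 or more counts, 21.0 genes were detected on average in the diencephalon and 21.0 in the cortex; with 1 library left out, 27.0 to 33.0 and 32.5 to 34.0 were detected at 1 or more. Over all genes, 3133 passed, and 2331 to 3373 with 1 library left out. With the replicate block, 3037 genes passed, Pcna kept its call (edgeR adjusted p = 0.0364) and no other tested member passed. Depth limits single genes, since 34 of 41 did not pass the count filter.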
